A study of Mus musculus with 15 samples.

Results

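The genes described here are 9 genes of iron handling in RPE, the retinal pigment epithelium, a pigmented sheet of cells that borders the photoreceptors. They were taken by symbol from a deposited count table of 46078 genes, and all 9 were found: Trf, Tfrc, Slc11a2, Fth1, Ftl1, Hmox1, Slc40a1, Heph and Cp. All 9 passed the filter on low counts in each comparison. The study compared RPE from mice that differ in Mertk, a receptor with which the RPE takes up shed photoreceptor outer segments, and in Bai1 (gene Adgrb1), another receptor for phosphatidylserine. RNA was poly-A-selected and sequenced for 15 libraries from female mice at postnatal day 14, with RNA extraction starting 2 hours after light onset. Mertk WT (n = 4) and Mertk KO (n = 4) form a first set. Bai1 Tg neg (n = 4) and Bai1 Tg pos (n = 3), both with wild-type Mertk and the latter with a Bai1 transgene, form a second. All 15 libraries share a strain label that mixes C57BL/6J with the B6;129-Mertktm1Grl/J line. The labels do not name the promoter of the transgene.

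Cells take up iron mostly as transferrin, which binds its receptor, is carried into endosomes and gives up its iron there to a transporter that brings it to the cytosol. Iron that is not used is stored in ferritin, a shell built of heavy and light chains, or leaves through the exporter ferroportin with the help of copper ferroxidases. The RPE stands between the choroidal blood supply and the photoreceptors and is a route of iron into the outer retina; mice that lack both hephaestin and ceruloplasmin accumulate iron in the RPE. Part of this system is set after transcription: iron regulatory proteins bind a hairpin, the iron-responsive element, and block translation where it lies in a 5' UTR or protect the mRNA where it lies in a 3' UTR.

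The elements found in the 9 genes are printed first, since the messages that hold them are known for this control. They were searched on the transcript strand of coding transcripts (GENCODE M21, GRCm38) as a C, 5 bases, the loop CAGTGN whose last base is not G, and 5 bases that pair with the 5 before the loop, with at least 3 of 5 pairs below the bulged C. Of the 9 genes, 4 held a match, with 7 elements in all; 33 of 21901 coding genes (0.151%) held a match in a UTR and 68 (0.31%) anywhere. Each element is 27 bases, read 5' to 3', with the loop in capitals. The single elements of Fth1 (chr19:9982733-9982759, plus strand), Ftl1 (chr7:45459780-45459806, minus strand) and Slc40a1 (chr1:45925466-45925492, minus strand) lie in the 5' UTR. The 4 elements of Tfrc lie in its 3' UTR on the plus strand, at chr16:32631220-32631246, chr16:32631599-32631625, chr16:32631664-32631690 and chr16:32631711-32631737, and are numbered in that order.
Fth1: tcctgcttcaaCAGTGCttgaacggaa
Ftl1: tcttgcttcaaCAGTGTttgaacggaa
Slc40a1: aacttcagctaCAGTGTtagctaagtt
Tfrc 1: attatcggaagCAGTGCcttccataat
Tfrc 2: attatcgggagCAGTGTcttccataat
Tfrc 3: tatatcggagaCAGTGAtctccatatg
Tfrc 4: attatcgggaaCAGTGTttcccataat
The loop read CAGTGT in 4 of the 7 elements, CAGTGC in 2 and CAGTGA in the third of Tfrc. No match was found in the other 5 genes, which says only that these letters and pairs are not in the transcripts searched. A hairpin with an extra unpaired base among the 5 pairs next to the loop would be missed. A match is a description of sequence, and binding was not measured here.

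The libraries held between 9591129 and 20024507 counts. Rpe65, the retinoid isomerase that marks the RPE, was at 4175 to 6667 CPM (counts scaled to library size with trimmed-mean factors), and 11 of 12 RPE markers were above 100 CPM in every library, the exception being Best1 at 0 to 1.81 CPM. The Mertk message itself averaged 246 ± 12.98 CPM in the wild type and 178 ± 18.9 CPM in the knockout (SD, n = 4 each); the count sums all exons and so does not read the deleted stretch alone. The library labelled Bai1 Tg neg 4 held 143.5 CPM of Adgrb1, against 166 to 170 CPM in Bai1 Tg pos and a median of 0.131 CPM in its own group, so results that rest on it are given with and without it. Rod markers (20 genes, mean log2 CPM) were at 5.23 to 7.12 in Mertk WT, 5.28 to 6.05 in Mertk KO, 2.59 to 4.196 in Bai1 Tg neg and 2.61 to 4.98 in Bai1 Tg pos, with no overlap between the Mertk and the Bai1 sets. The labels name no animals behind the replicates. The p-values therefore describe the spread of these libraries only, part of which may be technical.

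By the deposited counts and lengths, the ferritin chains were the most abundant of the 9 messages per length and ferroportin the least; the place of Trf depends on how its length is taken. In RPKM, the CPM divided by gene length in kilobases, averaged over 15 libraries, Ftl1 was at 815 and Fth1 at 773, ranks 34 and 35 of the 14520 genes that passed the filter over all libraries. Trf followed at 323 (rank 100), then Hmox1 at 44.6, Heph at 27.7, Slc11a2 at 16.5 and Tfrc at 9.95. Over the 1212 exon bases that Trf does not share with the gene model Gm20425, its level would be 885 RPKM (632 to 1145), above the mean of either ferritin chain. Cp, at 0.237, and Slc40a1, at 0.0918, ranked 13628 and 14336. The ranges over libraries overlapped for 4 pairs of neighbours: Ftl1 and Fth1, Hmox1 and Heph, Slc11a2 and Tfrc, and Cp and Slc40a1. Within these pairs the first was the higher in 12, 13, 15 and 14 of the 15 libraries. The storage genes thus stood over 3 orders of magnitude above the exporter in the same libraries.

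**Figure D1:**
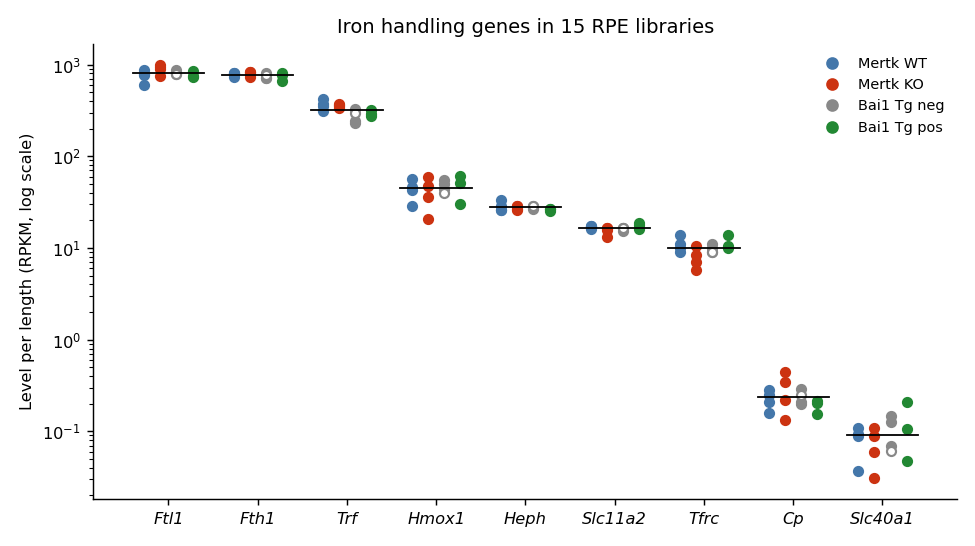
Level per length (RPKM, log axis) of the 9 genes in each of the 15 libraries, coloured by group, with the mean over libraries as a line; Bai1 Tg neg 4 is drawn open. Ftl1 and Fth1 lie near 815 and 773 RPKM, Slc40a1 near 0.0918, and no gene's groups separate in any of the 3 comparisons made.

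The spread between libraries of a group also differed between the genes. The within-group SD of log2 CPM was 0.098 for Fth1, 0.099 for Slc11a2, 0.107 for Heph, 0.164 for Ftl1 and 0.168 for Trf, all below the median of 0.217 over the genes that passed the filter. It was 0.265 for Tfrc, 0.379 for Cp, 0.455 for Slc40a1 and 0.474 for Hmox1. Cp and Slc40a1 rest on few fragments, 15 to 61 and 4 to 22 per library, and 530 and 186 over the 15 libraries, where Hmox1 had 22143.

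Trf (ENSMUSG00000032554, chr9:103204001-103230444, minus strand, GRCm38 as for all genes here) encodes transferrin, the iron carrier of plasma. In the Mertk WT libraries 1 to 4 it was at 1025, 1231, 1176 and 1387 CPM, and in Mertk KO at 1113, 1167, 1198 and 1226 CPM. In Bai1 Tg neg it was at 796, 766, 1096 and 988 CPM, and in Bai1 Tg pos at 962, 919 and 1047 CPM. The knockout values lie inside the wild-type range, while 5 of the 7 Bai1 libraries were below every Mertk library. The deposited Trf count may be an undercount, since 2108 of its 3320 exon bases (63.5%) as deposited also belong to Gm20425 on the same strand, the counting options recorded keep no fragment assigned to more than 1 gene, and Gm20425 itself had 0 to 2 counts.

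Tfrc (ENSMUSG00000022797, chr16:32608920-32632794, plus strand) encodes the transferrin receptor, the entry point of transferrin-bound iron. It was at 56.1, 86.0, 67.9 and 62.0 CPM in Mertk WT, and at 65.0, 52.2, 43.3 and 35.96 CPM in Mertk KO. Bai1 Tg neg had 56.5, 61.7, 67.6 and 55.8 CPM and Bai1 Tg pos 85.8, 65.4 and 62.0 CPM. The 3 lowest of the 15 libraries were all Mertk KO, and the fourth Mertk KO library lay within the wild-type range. Slc11a2 (ENSMUSG00000023030, chr15:100387898-100425072, minus strand), the transporter that moves iron out of the endosome, stayed between 83.3 CPM (Mertk KO 3) and 117 CPM (Bai1 Tg pos 1) in all 15 libraries, and its next lowest value was 97.9 CPM.

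Fth1 (ENSMUSG00000024661, chr19:9982703-9985092, plus strand), the heavy chain that oxidises iron as it enters ferritin, ranged from 568 CPM (Bai1 Tg pos 1) to 712 CPM (Mertk KO 2), with the smallest within-group SD of the 9. Ftl1 (ENSMUSG00000050708, chr7:45457944-45459884, minus strand), the light chain, was at 1172, 811, 1027 and 1061 CPM in Mertk WT and 995, 1245, 1337 and 1189 CPM in Mertk KO. The Bai1 libraries had 974 to 1168 CPM of Ftl1, so its lowest and its highest values both lay in the Mertk set. The heavy to light ratio per length was 0.958 on average over the libraries and ran from 0.799 in a Mertk KO library to 1.31 in Mertk WT 2. Ftl1 has near-identical copies elsewhere in the genome, of which Ftl1-ps1 (chromosome 13, 99.6% identity over 910 bases) had 20 to 48 counts and Gm15590 (chromosome 17, 99.1% over 552 bases) 1 to 15. The counting options recorded leave out fragments that align to several places, so the Ftl1 level is a lower limit where its sequence is shared.

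Hmox1 (ENSMUSG00000005413, chr8:75093591-75100596, plus strand), the inducible enzyme that opens heme and frees its iron, had the largest spread within groups. It was at 93.1, 101, 122 and 61.5 CPM in Mertk WT and 77.2, 102, 130 and 45.0 CPM in Mertk KO. In Bai1 Tg neg it was at 95.1, 119, 107 and 86.4 CPM, and in Bai1 Tg pos at 133, 109 and 65.5 CPM. The 4 groups overlapped throughout. The lowest and second lowest, Mertk KO 4 and Mertk WT 4, are the 2 Mertk libraries whose label has the first tag number 21, where the other 6 have 17; what the tags stand for is not given. With tag number and genotype in 1 fit, tag 21 over tag 17 gave a log2 fold change of -0.97 for Hmox1 (SE 0.210; adjusted p = 0.269, edgeR), in a fit that called 14 of 13447 genes (0.104%) for that term.

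The release genes differed widely in level. Heph (ENSMUSG00000031209, chrX:96455359-96574485, plus strand), the membrane-bound ferroxidase hephaestin, was at 196 to 257 CPM in all libraries, and its highest value, in Mertk WT 2, was followed by 222 CPM in the library labelled Bai1 Tg neg 4. Cp (ENSMUSG00000003617, chr3:19957054-20009145, plus strand), the ferroxidase ceruloplasmin, was at 1.28 to 4.22 CPM. Of its 9566 exon bases, 108 (1.13%) also belong to Hps3 on the other strand, which had 584 to 1569 counts. The counting used no strand option, and the effect of this overlap on the Cp count was not tested. Heph exceeded Cp per length in 15 of 15 libraries, by 60.0 to 215 times with a mean of 129, a ratio added after the values were seen. Slc40a1 (ENSMUSG00000025993, chr1:45908068-45926523, minus strand), which encodes ferroportin, was at 0.277 to 1.86 CPM. Its lowest count was 4 fragments, just above the 3 used here as the limit of detection (0.15 to 0.313 CPM by library), and its fold changes had the widest intervals of the 9 genes in all 3 comparisons.

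**Figure D2:**
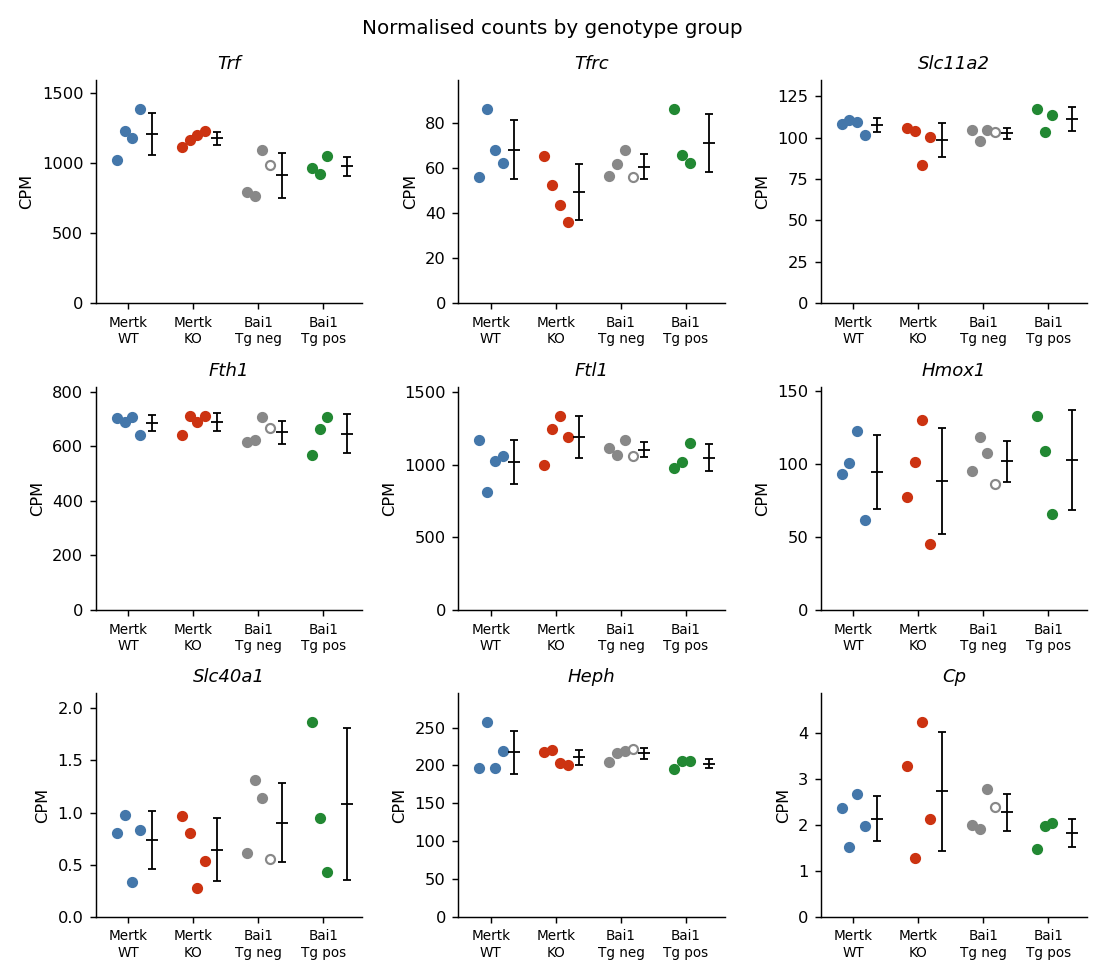
Normalised counts (CPM, axes from 0) of each gene by group, with points for libraries, and mean and SD to the right of each group; Bai1 Tg neg 4 is drawn open. Mertk KO holds the lowest Tfrc values, the Bai1 groups hold most of the lowest Trf values, and Hmox1 spans 45.0 to 130 CPM inside Mertk KO alone.

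The first comparison is about the loss of Mertk. None of the 9 genes passed the threshold in Mertk KO against Mertk WT (edgeR quasi-likelihood test, adjusted p under 0.05), where 0.223% of the 13447 genes tested did, and no gene's 2 groups were free of overlap in CPM, against 3.52% of all genes tested. At an unadjusted p under 0.05 there was 1 of 9, Tfrc, against 5.58% of all genes. The median log2 fold change of the 9 was -0.05, with 3 above 0 and 6 below, and that of all genes was 0.00.

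Tfrc averaged 49.1 ± 12.5 CPM in the knockout and 68.0 ± 12.96 CPM in the wild type (SD, n = 4 each), and 3 of the 4 Mertk KO libraries were below every Mertk WT library. Its log2 fold change was -0.47 (SE 0.185, 95% interval -0.89 to -0.06), with an unadjusted p of 0.029 and an adjusted p of 0.818 by edgeR. The receptor message per ferritin heavy chain message, Tfrc to Fth1 per length, averaged 0.0101 in the knockout and 0.0139 in the wild type, with overlapping ranges (0.00709 to 0.0142 and 0.0112 to 0.0175). Without each library in turn the fold change of Tfrc ran from -0.63 to -0.35, and it was -0.39 in the 6 libraries of tag 17.

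By their sums or mean level, some marker lists of other cell types lay lower in the knockout, as Tfrc did, and others lay higher. The rod marker level averaged 5.75 in the knockout and 6.16 in the wild type. With it as a covariate the log2 fold change of Tfrc was -0.34, with an SE of 0.139 against 0.185 without it. Its unadjusted p was then 0.033 and its adjusted p 0.922 by edgeR. Summed markers of vascular endothelium, a cell type that also makes the transferrin receptor, were at 105 to 175 CPM in the knockout and 133 to 221 CPM in the wild type. Ramp2 gave most of these sums, 125 and 142 CPM on average, 5 of the 10 markers passed the filter, and Pecam1, Cdh5, Tek, Cldn5 and Emcn were at means below 0.6 CPM. Summed markers of ciliary body and iris epithelium (3 of 5 passed the filter, led by Slc4a4 and Aqp1) were at 37.0 to 51.9 CPM in the knockout and 55.5 to 81.3 CPM in the wild type, without overlap. Slc4a4 gave most of these sums, 35.05 CPM in the knockout and 53.74 CPM in the wild type on average. Zic1 averaged 0.017 CPM in both groups, and Opcml 0.048 CPM in the knockout and 0.188 CPM in the wild type. Erythroid markers, which would come with receptor-rich red cell precursors, summed to 0.943 to 3.29 CPM in the knockout and 1.95 to 6.68 CPM in the wild type. The sums of other lists lay higher in the knockout, with overlap. Choroidal melanocyte markers, led by Pmel (also an RPE marker), summed to 3163 to 4406 CPM against 2471 to 3573 CPM in the wild type. Pmel gave most of these sums, 3191 CPM in the knockout and 2608 CPM in the wild type on average. Sox10 (298.5 and 263.7 CPM), Mlana (140 and 115 CPM) and Kit (40.9 and 38.0 CPM) were also higher in the knockout, and Ednrb (1.61 and 2.95 CPM) was lower. Macrophage and microglia markers, led by Csf1r (3 of 16 passed the filter), were at 667 to 744 against 638 to 705 CPM. Csf1r gave nearly all of these sums, 713 CPM in the knockout and 650 CPM in the wild type on average. Of the markers near the floor, Mrc1 averaged 0.258 CPM in the knockout and 0.416 CPM in the wild type. C1qa averaged 0.442 and 0.286 CPM, and Ptprc 0 and 0.026 CPM. Markers of smooth muscle and pericyte summed to 300 to 363 CPM in the knockout and 292 to 327 CPM in the wild type. Acta2 gave most of these sums, 205 and 200 CPM on average. Cspg4 (81.9 and 71.9 CPM), Pdgfrb (37.0 and 29.0 CPM) and Tagln (2.31 and 2.01 CPM) were also higher in the knockout. Myh11 (1.22 and 2.30 CPM), Rgs5 (0.178 and 1.70 CPM) and Des (0.035 and 0.095 CPM) were lower there. The part of these cells in the Tfrc difference was not tested beyond the rod covariate, and in bulk RNA fewer cells of a type and less RNA per cell cannot be told apart.

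Of the other genes, Ftl1 averaged 1192 ± 144 CPM in the knockout and 1018 ± 151 CPM in the wild type, and its log2 fold change was 0.22 (95% interval -0.04 to 0.48; adjusted p = 0.905, edgeR). Fth1 differed by 0.00 with an interval of -0.15 to 0.15, which bounds any difference in heavy chain message to between 0.901 and 1.11 times. Trf (-0.04, -0.23 to 0.15) and Heph (-0.05, -0.25 to 0.14) had intervals of similar width. Slc11a2 was at -0.14 (-0.32 to 0.05), with 2 of 4 Mertk KO libraries below every Mertk WT library. The intervals of Hmox1 (-0.94 to 0.73), Cp (-0.46 to 1.16) and Slc40a1 (-1.29 to 0.92) reach past 1.5 times, for Hmox1 and Slc40a1 in both directions and for Cp upward. With the tag number in the fit, Hmox1 was at -0.14 with an SE of 0.170, against -0.10 with an SE of 0.353 without it. With the replicate number as a block, Hmox1 was at -0.16 with an SE of 0.104 (adjusted p = 0.886, edgeR). The wide interval of Hmox1 above is thus that of the fit without tag or block.

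The second comparison concerns the Bai1 transgene in mice with wild-type Mertk. None of the 9 genes passed the threshold in Bai1 Tg pos against Bai1 Tg neg, where 0.0144% of 13855 genes did, none was free of overlap (6.2% of all genes), and none had an unadjusted p under 0.05 (5.18% of all genes). The mean of Tfrc was 71.1 ± 12.9 CPM in libraries labelled Bai1 Tg pos (n = 3) and 60.4 ± 5.50 CPM in those labelled Bai1 Tg neg (n = 4), and its log2 fold change was 0.24 (95% interval -0.01 to 0.48; adjusted p = 0.948, edgeR). Bai1 Tg pos 1, at 85.8 CPM, was the only Bai1 library above 67.6 CPM, and without it the fold change was 0.08. Trf was at 0.10 (-0.17 to 0.37), Slc11a2 at 0.12 (-0.04 to 0.28), Heph at -0.09 (-0.22 to 0.05), Ftl1 at -0.07 (-0.22 to 0.08) and Fth1 at -0.01 (-0.18 to 0.16). These 5 intervals exclude a difference of 1.5 times in either direction. Hmox1 (0.01, -0.60 to 0.62), Cp (-0.30, -1.17 to 0.56) and Slc40a1 (0.22, -1.19 to 1.64) were less closely bounded. Without the library labelled Bai1 Tg neg 4, Tfrc was at 0.20, Trf at 0.14 and Slc11a2 at 0.13, and again none of the 9 passed.

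**Figure D3:**
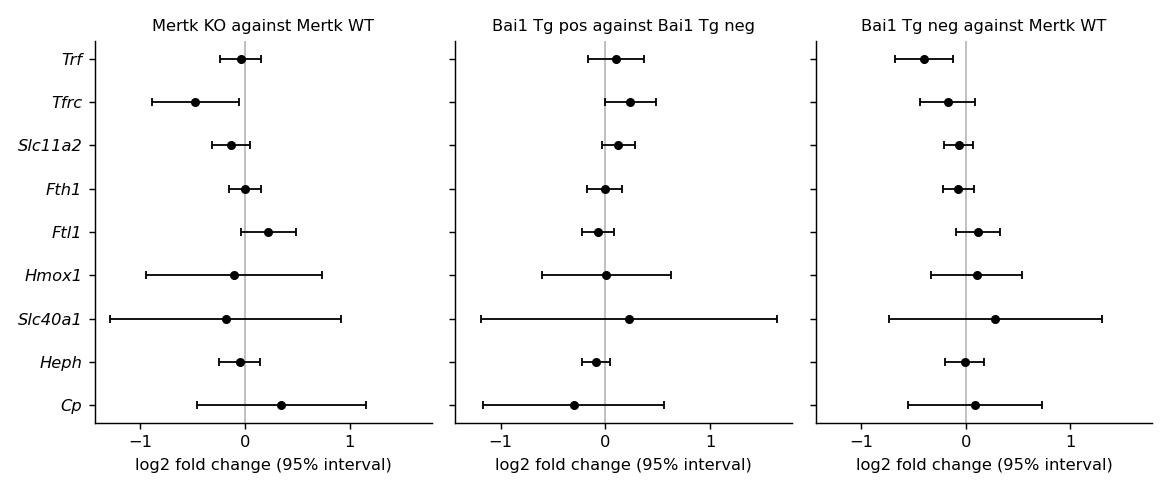
Log2 fold change of each gene with its 95% interval (edgeR quasi-likelihood fit) in the 3 comparisons; the grey line marks no difference. The intervals of Tfrc in Mertk KO against Mertk WT and of Trf in Bai1 Tg neg against Mertk WT lie wholly below 0 before adjustment over all genes, and those of Slc40a1 are the widest.

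Bai1 Tg neg and Mertk WT both carry wild-type Mertk and no labelled transgene, and their difference shows how far the genes vary between the 2 sets of controls. They share libraries with the other comparisons, and set, tag number and rod marker level cannot be told apart here. None of the 9 genes passed the threshold, where 0.431% of 13459 genes did, none was free of overlap (5.74% of all genes), and 1, Trf, had an unadjusted p under 0.05 (7.99% of all genes). Trf averaged 912 ± 158 CPM in Bai1 Tg neg and 1205 ± 150 CPM in Mertk WT (SD, n = 4 each), and 3 of the 4 Bai1 Tg neg libraries were below every Mertk WT library. Its log2 fold change was -0.40 (SE 0.125, 95% interval -0.68 to -0.13; adjusted p = 0.318, edgeR), and -0.44 without the library labelled Bai1 Tg neg 4. DESeq2 gave it an adjusted p of 0.079, the lowest of any of the 9 genes in any setting. With the rod marker level as a covariate it was -0.04, in a fit that called 0 genes in all (956 had an unadjusted p under 0.05). Oligodendrocytes are another source of Trf in nervous tissue; their summed markers were at 299 to 348 CPM in libraries labelled Bai1 Tg neg and 247 to 400 CPM in Mertk WT. Sox10 gave most of these sums, 249 and 264 CPM on average, 5 of 8 markers passed the filter, Mog and Mobp were at means below 0.4 CPM, and the part of these cells was not tested. The other 8 genes lay between -0.17 (Tfrc) and 0.28 (Slc40a1) on the log2 scale.

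**Figure D4:**
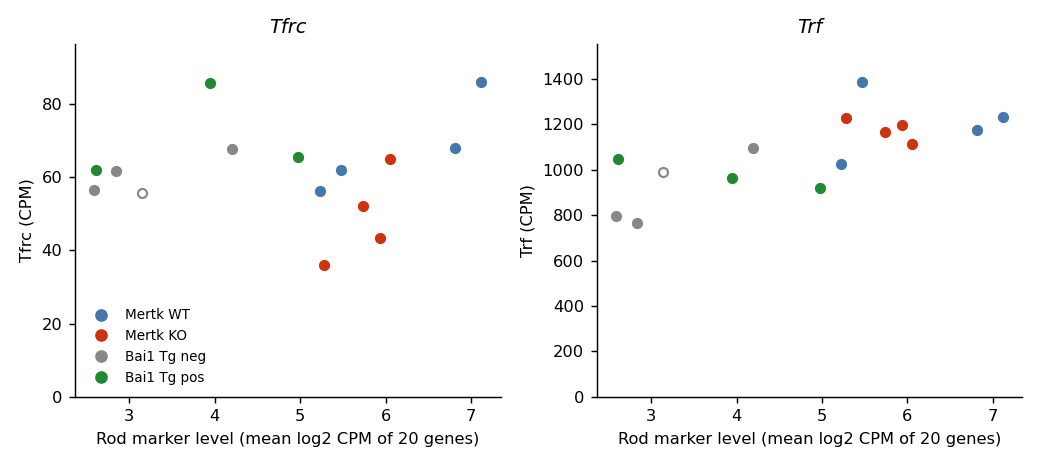
Tfrc (left) and Trf (right) in CPM against the rod marker level of each library (mean log2 CPM of 20 rod genes), coloured by group; Bai1 Tg neg 4 is drawn open. The Mertk libraries lie at 5.23 or above and the Bai1 libraries at 4.98 or below, and within the Mertk range the Mertk KO libraries hold the lowest Tfrc values.

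The other genes of the pathway, from a list of 83 of which 82 were in the table, gave no call either. Of 65, 66 and 65 tested in the 3 comparisons, 0 passed the threshold in any by edgeR, and 2, 4 and 3 had an unadjusted p under 0.05, beside 5.58%, 5.18% and 7.99% of all genes. Their median log2 fold changes were -0.04 for Mertk KO, -0.02 for Bai1 Tg pos and 0.02 between control sets, beside medians of 0.00 over all genes in each. In Mertk KO the smallest p values belonged to Epas1, the hypoxia-inducible factor whose own mRNA carries an iron-responsive element, at 1103 ± 91.7 CPM against 1275 ± 73.2 CPM (log2 fold change -0.21, adjusted p = 0.737, edgeR), and to Glrx5, a glutaredoxin of iron-sulfur cluster assembly (0.31, adjusted p = 0.890). In Bai1 Tg pos they belonged to Scara5, a ferritin receptor (-0.26), and Slc22a17, the lipocalin 2 receptor (-0.24), each with an adjusted p of 0.948 by edgeR. Between control sets they were Pcbp2, an iron chaperone (-0.22, adjusted p = 0.348), and Cpox, an enzyme of heme synthesis (0.50, adjusted p = 0.386). These 6 genes were picked by their p, and the groups of each were free of overlap in CPM, as were 3.52%, 6.2% and 5.74% of all genes in the 3 comparisons.

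The levels of these genes place the 9 in their setting; those named here were chosen after their values were seen. Of the sensors of iron, Aco1 (iron regulatory protein 1) was at 74.3 RPKM and Ireb2 (iron regulatory protein 2) at 20.9 RPKM, means over 15 libraries. Slc22a17 (251 RPKM) and Scara5 (15.2 RPKM), receptors for uptake outside the transferrin route, stood above Tfrc (9.95 RPKM). Lcn2, which encodes the lipocalin 2 that Slc22a17 binds, had 0 to 13 counts per library, and uptake by any route was not measured. The zinc and iron transporter Slc39a14 was at 7.45 RPKM and the ferrireductase Steap3, which serves the transferrin cycle in red cell precursors, at 0.925 RPKM. For storage, the iron chaperone Pcbp1 was at 147 RPKM and Ncoa4, the receptor that sends ferritin to lysosomes, at 10.3 RPKM. Among heme genes, Slc48a1, which moves heme out of lysosomes (271 RPKM), and Flvcr2, listed as a heme carrier (225 RPKM), were above Hmox1, and the constitutive heme oxygenase Hmox2, at 17.8 RPKM, was below it. Bmp6, a signal for hepcidin in liver, was at 65.3 RPKM, whereas Hamp, which encodes hepcidin, had 0 to 2 counts per library, and Hamp2, Ltf, Ftmt and Hephl1 had 0 in all.

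For the 3 genes of largest spread over the libraries, the genes of most alike profile were sought by the root-mean-square difference of mean-centred log2 CPM over the 15 libraries. For Hmox1 these were Sap30 (0.122), Mfsd2a (0.142) and Insig1 (0.158), against a median of 0.485 over all genes that passed the filter. As the closest of all these genes they lie below that median by the way they were picked. In Mertk KO 4, where Hmox1 was at 45.0 CPM, Sap30 was at 10.3, Mfsd2a at 121 and Insig1 at 244 CPM, each its lowest of the 15 libraries. The 3 genes were picked for likeness over these same libraries, so their low values there follow largely from the choice. For Slc40a1 they were Zfand1 (0.231), Zfp992 (0.236) and Dcun1d1 (0.25), and for Cp they were Limk1 (0.213), Acy1 (0.219) and Smim27 (0.225). The profiles of Slc40a1 and Cp rest on the few fragments given above.

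**Figure D5:**
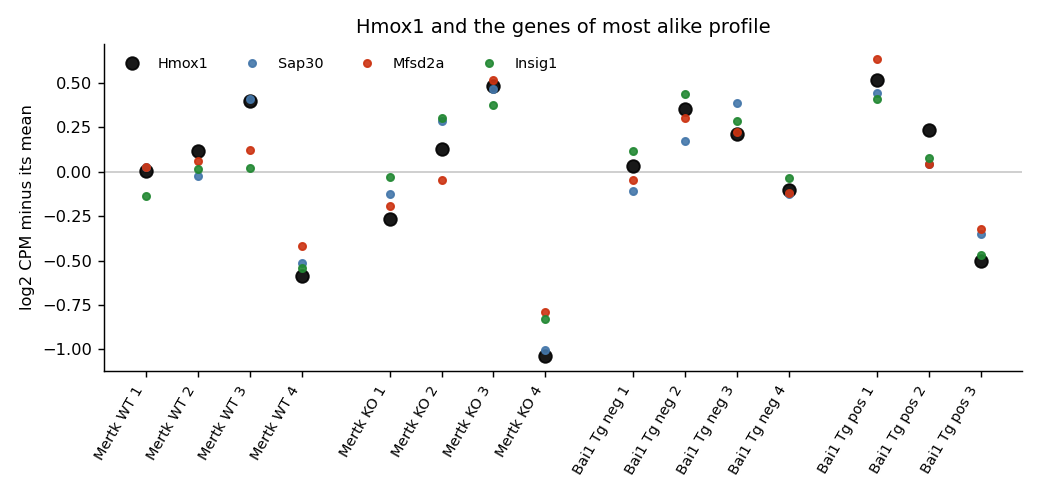
Hmox1 (large black points) and the 3 genes of most alike profile as log2 CPM minus each gene's mean over the 15 libraries, by library. All 4 are low in Mertk WT 4, Mertk KO 4 and Bai1 Tg pos 3 and high in Mertk KO 3 and Bai1 Tg pos 1, and libraries of the same group lie apart. The 3 genes were picked for their likeness to Hmox1 in these same libraries.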

How the data were processed

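A single table of raw fragment counts, by gene and for 15 libraries, was deposited. The submitters' processing notes name STAR and GRCm38, with the aligner's version and the annotation not given in the sources used here. Per the file headers, the authors counted with featureCounts 1.5.0 over exons, with both ends mapped, no strand option, and no option for multi-mapping or multi-overlapping fragments. Gene length (a column of other kind) was deposited beside the counts and used for RPKM.

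Ensembl identifiers gave symbols for 45143 genes (99.9% of counts). CPM used TMM factors over 15 libraries. Each comparison was fitted on its own libraries with edgeR 4.0.16 (R 4.3.3; filterByExpr, robust quasi-likelihood F test, two-sided) and Benjamini-Hochberg adjustment over all genes tested at 0.05; the fits were tested on simulated data. Alternatives used DESeq2 1.42.0 and limma 3.58.1 (voom), other scalings, no filter, covariates, a replicate block and leaving out libraries. Copies were sought with blastn 2.17.0. No 2 libraries of a group agreed within sampling noise (lowest chi-square per degree of freedom 5.28). Detection limits cover counting error only.

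The 9 genes, the pathway list and the marker lists were chosen with earlier results of these data known. By the rule for named genes, the text gives all 9 genes, for the other pathway genes those past the threshold or else the 2 of smallest p, and the 3 most alike genes for the 3 genes of largest spread; others are marked as chosen after their values were seen.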

Additional observations from a re-analysis of the deposited data

Results flagged for a closer look

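In Bai1 Tg neg, Slc11a2 was at 97.9 CPM in replicate 2 and between 104 and 105 CPM in the other 3 libraries, a gap that is 0.865 of the group's whole range and past Dixon's critical value for 4 samples. It was the single case among the 27 combinations of gene and group with 4 libraries that were looked at, and chance gives about 1 in 20.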

How the results depend on the processing

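None of the 9 genes passed the threshold in any of the 52 fits, and of 441 alternative log2 fold changes 400 kept their sign. The sign turned in 41, all of genes that were not called; the cause was not tested. In Mertk KO against Mertk WT, the 6 libraries of tag 17 gave 0.019 for Trf and -0.040 for Fth1, upper-quartile factors -0.0040 for Fth1, and the rod covariate -0.00098 for Fth1 and 0.044 for Hmox1. In Bai1 Tg pos against Bai1 Tg neg, limma-voom gave 0.031 for Fth1, -0.071 for Slc40a1 and -0.055 for Hmox1, the rod covariate -0.092 for Slc40a1 and -0.17 for Hmox1, and the replicate block -0.10 for Slc40a1 and -0.11 for Hmox1. In Bai1 Tg neg against Mertk WT, the rod covariate gave 0.48 for Tfrc, 0.10 for Fth1, -0.17 for Ftl1, 0.027 for Slc11a2 and 0.24 for Heph, and limma-voom -0.050 for Cp and 0.035 for Heph. Leaving out single libraries turned signs within these ranges: in Mertk KO, Trf -0.10 to 0.039, Fth1 -0.025 to 0.040, Slc40a1 -0.45 to 0.054, Heph -0.094 to 0.033 and Hmox1 -0.35 to 0.12; in Bai1 Tg pos, Fth1 -0.077 to 0.073, Slc40a1 -0.39 to 0.62 and Hmox1 -0.22 to 0.25; between control sets, Cp -0.049 to 0.22, Heph -0.055 to 0.080 and Hmox1 -0.049 to 0.26. The replicate block called 24, 4 and 106 genes in all against 30, 2 and 58 without it, 0 of them among the 9. In the Mertk set, same-numbered libraries correlated at -0.115, -0.0299, 0.151 and 0.236, and those numbered 4 share tag 21. Not every pair passed 0.1 in any comparison, so the main fits did not pair the samples by number. In the Mertk set, same-numbered libraries also share the first tag number and have consecutive second tag numbers. Whether they were handled as pairs is not stated. DESeq2 called 74, 21 and 221 genes in all and the fits without a filter 69, 85 and 138, again 0 of the 9. Depth limits Slc40a1 (4 to 22 counts) and Cp (15 to 61 counts). The length of Trf without the bases shared with Gm20425, chosen after seeing the data, moved its level from 323 to 885 RPKM.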

Other observations

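Among the other pathway genes, Id1, a target of bone morphogenetic protein signalling, ranged from 25.6 to 208 CPM over the 15 libraries, with a mean of 91.5 CPM, and it passed the threshold in none of the 3 comparisons (edgeR). Lrp1, a large receptor that takes up heme-loaded hemopexin among other ligands, was at 1493 to 2318 CPM, while the carriers Hpx and Hp were at 0.785 to 3.295 CPM and 0 to 0.785 CPM. These genes were chosen after their values were seen.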
